A study of Mus musculus with 15 samples.

Results

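Respiratory complex I is the largest enzyme of the mitochondrial electron transport chain. It takes electrons from NADH, passes them through a flavin and a row of iron-sulfur clusters to ubiquinone, and pumps protons across the inner membrane. Its matrix arm holds the N module, where NADH is oxidised, and the Q module, where ubiquinone is reduced, while the membrane arm has a proximal and a distal part. A few core subunits carry out catalysis, the remaining accessory subunits surround them, and assembly factors build the complex without staying in it. Haematopoietic stem cells (HSC) are commonly described as relying on glycolysis more than their cycling progeny do.

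Transcripts of these genes were examined in HSC from 15 C57BL/6 mice labelled female, with 1 library per mouse. The 5 young mice were 6 to 12 weeks old, and the 10 aged mice were 20 to 24 months old. Of the aged mice, 5 received nicotinamide riboside (NR), a vitamin B3 form that cells convert to NAD, at 3 mg/ml for 2 months, and the other 5 received none. The young mice received no NR either, and no young NR-treated group was part of these libraries. The cells were sorted from bone marrow as HSC, and 20000 to 25000 cells per mouse were used.

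Members were chosen by symbol. All rows of the deposited table named Nduf followed by a subunit letter and a number, Ndufab1, and the Ndufaf assembly factors were taken, and pseudogenes were left out. This gave 45 of the 16154 genes, of which 37 carry subunit names and 8 (Ndufaf1 to Ndufaf8) are assembly factors. Of the subunits, 8 were placed in the N module, 8 in the Q module, 9 in the proximal and 11 in the distal membrane arm. Ndufa4 is named as a complex I subunit but belongs to complex IV, so 36 complex I subunits remained. Among the subunits in the table, 7 are core subunits. The 7 mitochondrially encoded core subunits were not analysed here. All 45 members matched 1 gene each of GENCODE M21 on GRCm38 and lay on 17 chromosomes, with Ndufa1 and Ndufb11 on the X chromosome. The lowest count of a member in any library was 9, so all 45 members were above 3 counts, taken as the floor of detection, in all 15 libraries.

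Many nuclear genes of the respiratory chain carry binding sequences of nuclear respiratory factor 1 (NRF1) near their start. RefSeq promoter windows on GRCm38.p6, which span 250 bases before to 50 bases after a start, were found for 40 members in 42 windows. The letters GCATGCGC, the core of the palindromic NRF1 sequence, occurred on either strand in 5 windows (11.9%) and in 2.71% of all 32851 windows. The full NRF1 sequence, which is this core with GC directly before it, occurred in 3 member windows (7.14%), those of Ndufa11, Ndufaf4 and Ndufaf5, and in 0.971% of all windows. The core alone occurred also at Ndufa6 and Ndufa8. The ETS sequence CCGGAAG was in 14.3% of member windows and 8.86% of all windows, CCAAT in 33.3% and 37.4%, TATAAA in 11.9% and 13.6%, and the ERR sequence TCAAGGTCA in 0 member windows and 0.423% of all windows. No test was run on these shares, and a match is a run of letters, not a measured binding site. Of the genes with the core, Ndufa11 and Ndufa6 passed the test below as higher in aged HSC, and Ndufa8, Ndufaf4 and Ndufaf5 did not. The other genes that passed had no match, and Ndufb9 among them had no window. The following stretches upstream of the start show the NRF1 letters in capitals, for 2 subunits whose transcripts were higher in aged HSC and 1 assembly factor that did not pass the test, each written along the strand of its gene.
Ndufa11, chr17:56717692-56717721, plus strand: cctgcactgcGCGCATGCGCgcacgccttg
Ndufa6, chr15:82354357-82354384, minus strand: ccgcggtagaGCATGCGCattgcagagc
Ndufaf4, chr4:24897960-24897989, plus strand: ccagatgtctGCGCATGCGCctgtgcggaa
The first base of the capitals lay 60 bases before the start of Ndufa11, 83 before that of Ndufa6 and 113 before that of Ndufaf4.

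Levels are given in CPM, counts scaled to a common library size, where TMM sets that size so that the bulk of genes stands level between libraries. The libraries held 764119 to 13318989 counts, with medians of 2685764 in young, 6007460 in aged and 3162434 in NR-treated aged HSC. The 6 HSC markers (Kit, Ly6a, Slamf1, Procr, Hlf and Mecom) were present in all libraries and summed to 1089 to 1473 CPM in young, 1275 to 1602 CPM in aged and 1184 to 1637 CPM in NR-treated aged HSC. Single markers moved apart within these sums. In edgeR, Ly6a, Procr and Slamf1 were 2.31-, 2.41- and 1.79-fold higher in aged than in young HSC (adjusted p 0.000113, 0.000103 and 0.000373), while Kit, Hlf and Mecom were at 0.895-, 0.813- and 0.876-fold and did not pass. Slamf1 was 0.700-fold in NR-treated against untreated aged HSC (adjusted p 0.0288 in edgeR). Genes of mature blood cells differed between the groups. The 5 erythroid genes summed to 125 to 2620 CPM in young, 3121 to 6458 CPM in aged and 65.7 to 547 CPM in NR-treated aged HSC. The 5 B and plasma cell genes in the table summed to 100.1 to 758, 594 to 4365 and 83.2 to 164 CPM in the same order, the 8 granulocyte and monocyte genes to 411 to 7158, 1724 to 2653 and 303 to 597 CPM, and the T cell gene Cd3d to at most 17.1 CPM. Cd48 and Flt3, which mark progenitors outside the HSC gate, summed to at most 48.9 CPM. Cd48 was 12.2, 24.2 and 3.50 CPM on average in young, aged and NR-treated aged HSC and lower in NR-treated than in untreated aged HSC (log2 fold change -2.83, adjusted p 0.00776 in edgeR). Flt3 was 14.5, 3.24 and 5.46 CPM and lower in aged than in young HSC (log2 fold change -2.03, adjusted p 0.000107 in edgeR). These markers moved with the comparisons below, and their part in the Nduf levels was not tested. Young 1 and young 5 held 99.7 and 105 CPM of 4 Y-linked transcripts although all mice were labelled female, and the other 13 libraries held at most 3.00 CPM. Xist, a transcript of female cells, stood at 420 CPM in young 1 and 472 CPM in young 5, and at 293 to 895 CPM in the other 13. The source of the Y-linked transcripts was not tested. The results below are therefore also given without young 1 and young 5. In bulk RNA, a change in the mix of cells and a change in transcripts per cell cannot be told apart.

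Between aged and young HSC, 9 of the 45 members passed the test as higher in aged HSC, namely Ndufb9, Ndufa11, Ndufb10, Ndufc2, Ndufa6, Ndufa12, Ndufc1, Ndufs5 and Ndufa5, and 0 passed as lower. These 9 genes are all accessory subunits, and their levels rose 1.26- to 1.46-fold. Over the whole table, 9.68% of genes were called higher and 9.63% lower, against 20% and 0% of the members (edgeR's quasi-likelihood test, adjusted p under 0.05 by Benjamini-Hochberg across the whole table). At an unadjusted p under 0.05 stood 28 members and 33.2% of all genes, and all 28 had the higher level in aged HSC. The log2 fold change was above 0 for 43 of the 45 members and for 47.2% of all genes, and for 40 of 45 when library totals replaced TMM. The exceptions under TMM were Ndufv1, the core subunit that binds NADH and the flavin, at -0.01, and the assembly factor Ndufaf1 at -0.02. The median log2 fold change was 0.29 over the 37 subunit genes, 0.27 over the 8 assembly factors and -0.03 over all genes.

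**Figure D1:**
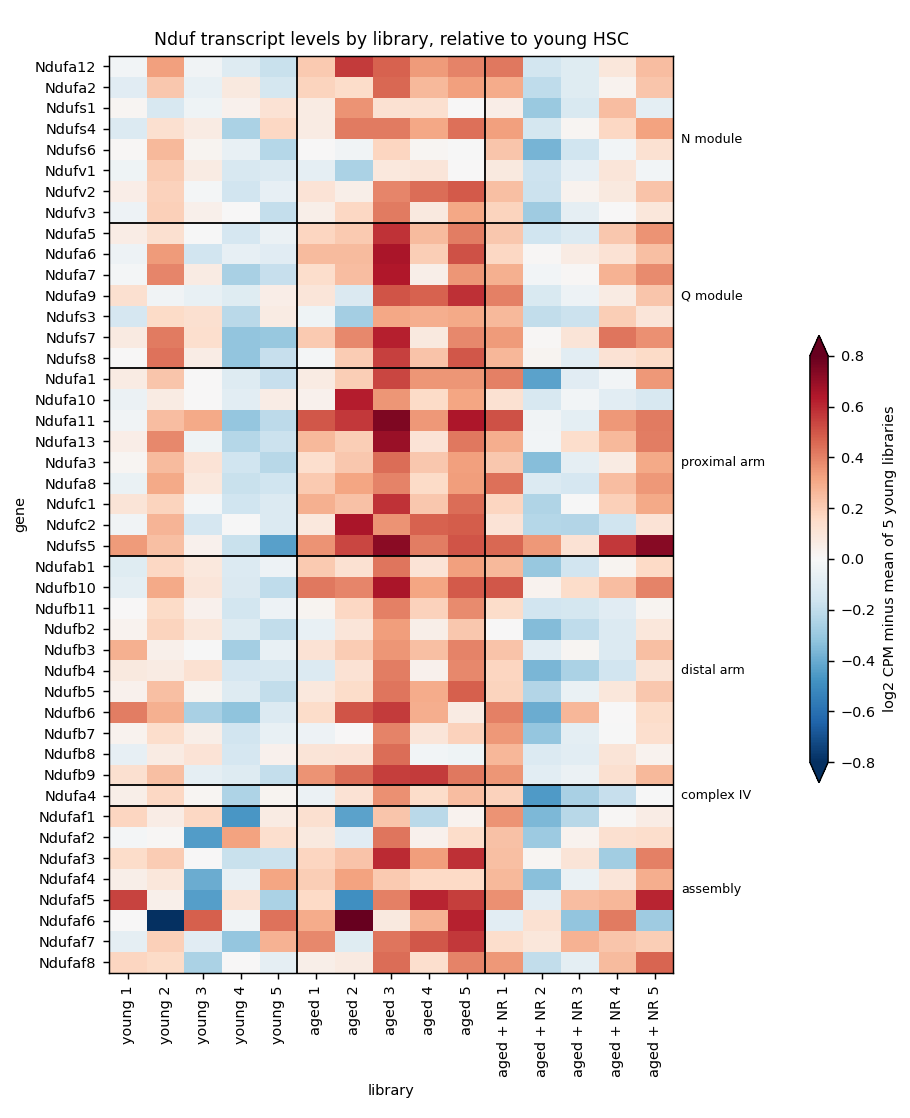
Level of 44 of the 45 Nduf genes (rows, by module) in each of the 15 libraries (columns), as log2 CPM minus the mean log2 CPM of the 5 young libraries on a colour scale that ends at ±0.8. Red is a level above the young mean. Aged 3 and young 2 were above their own group's mean for 42 of the 45 genes each, and NR-treated 2 was above its group's mean for 1. With TMM scaling 43 of the 45 genes had a log2 fold change above 0 between aged and young HSC, and 40 with library totals.

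By module, the largest share of calls was in the proximal membrane arm, with 4 of 9 subunits (44.4%), against 9.68% of all genes called higher. The Q module had 2 of 8 (25%), the distal membrane arm 2 of 11 (18.2%) and the N module 1 of 8 (12.5%). The median log2 fold changes of these modules were 0.34, 0.31, 0.24 and 0.24, and the differences between modules were not tested. The order of the shares did not hold in all refits. Without young 4, aged 3 or aged 5, the called members were Ndufa11 and Ndufc2 of the proximal and Ndufb9 and Ndufb10 of the distal membrane arm. Of the 7 core subunits 0 passed, against 9.68% of all genes called higher, and their median was 0.29. The difference between core and accessory subunits was not tested. At an unadjusted p under 0.05 stood 4 of the 7 core subunits (57.1%) and 33.2% of all genes. The core subunit Ndufv2 was called by DESeq2 and by limma-voom.

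In the distal membrane arm, Ndufb9 had the smallest adjusted p of all members. Ndufb9 (chr15:58933756-58939488) is a LYR-motif subunit that binds the mitochondrial acyl carrier protein Ndufab1. Its level was 366, 395, 318, 311 and 293 CPM in young 1 to 5, and 429, 455, 491, 492 and 448 CPM in aged 1 to 5. All 5 aged libraries lay above all 5 young ones. The means were 337 ± 42.0 and 463 ± 27.9 CPM (SD, n = 5 each), a log2 fold change of 0.46 ± 0.109 (SE) with an adjusted p of 0.00621 in edgeR. Exons of Ndufb9 overlap the same-strand gene Gm49356, which is not in the table, and its part in the counts was not tested. Ndufb10 (chr17:24722060-24724478), a subunit on the intermembrane side, stood at 273, 356, 309, 267 and 251 CPM in young and at 388, 379, 454, 360.2 and 406 CPM in aged HSC. Again the groups did not overlap, though aged 4 exceeded young 2 by little. Its log2 fold change was 0.45 ± 0.116 (SE), with an adjusted p of 0.0108 in edgeR. The other 9 distal subunits had log2 fold changes of 0.13 to 0.29, with Ndufb5 the highest of them (adjusted p 0.0788 in edgeR).

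In the proximal membrane arm, Ndufa11 had the largest log2 fold change of all members. Ndufa11 (chr17:56717767-56722141), a membrane subunit related to mitochondrial import proteins, was measured at 177, 213, 221, 145 and 155 CPM in young and at 254, 266, 302, 229 and 282 CPM in aged HSC. The groups were separated, by 221 against 229 CPM at their nearest, and the log2 fold change was 0.55 ± 0.140 (SE) and the adjusted p 0.00993 in edgeR. Exons of Ndufa11 overlap the opposite-strand gene Vmac, and whether counting used the strand is not given in the sources used here. Ndufc2 (chr7:97400003-97407802), a small membrane subunit, had 217, 266, 201, 220.2 and 204 CPM in young and 234, 346, 283, 306 and 308 CPM in aged HSC. Here the groups overlapped, since aged 1 lay below young 2, and the log2 fold change was 0.41 ± 0.118 (SE) with an adjusted p of 0.0207 in edgeR. Ndufc1 (chr3:51404677-51408988), another small membrane subunit, stood at 288, 302, 265, 239 and 248 CPM in young and at 326, 315, 399.5, 310.4 and 365 CPM in aged HSC. Its groups did not overlap, and its log2 fold change was 0.36 ± 0.114 (SE) with an adjusted p of 0.0335 in edgeR. Ndufs5 (chr4:123712710-123718202), a cysteine-rich subunit of the intermembrane space, was also higher in every aged library than in any young one. It had 24.9, 23.3, 20.2, 17.4 and 14.6 CPM in young and 25.3, 28.5, 32.5, 26.1 and 27.9 CPM in aged HSC, with a log2 fold change of 0.49 ± 0.164 (SE) and an adjusted p of 0.0419 in edgeR.

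In the Q module, Ndufa6 and Ndufa5 passed the test. Ndufa6 (chr15:82350140-82354322), another LYR-motif subunit that binds the acyl carrier protein, was measured at 487, 635, 450.0, 479 and 470.4 CPM in young and at 596, 597, 786, 573 and 712 CPM in aged HSC. Young 2 stood apart in its group and lay above 3 of the 5 aged libraries. For Ndufa6 the log2 fold change was 0.37 ± 0.114 (SE), with an adjusted p of 0.0265 in edgeR. Ndufa5 (chr6:24518666-24528013), an accessory subunit of the matrix arm, had 269.8, 284, 259, 237 and 251 CPM in young and 293, 299.7, 388, 309.5 and 345 CPM in aged HSC. These groups were separate, and the log2 fold change was 0.33 ± 0.115 (SE) with an adjusted p of 0.0465 in edgeR. Ndufa9, which binds NADPH in the complex, had a log2 fold change of 0.35 that did not pass (adjusted p 0.0667 in edgeR).

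In the N module, Ndufa12 was the called member. Ndufa12 (chr10:94198720-94221443) is an accessory subunit added late in assembly, in the place that the assembly factor Ndufaf2 held before it. It had 347, 442, 345, 328 and 311 CPM in young and 408, 519, 487, 445 and 464 CPM in aged HSC. Young 2 lay above aged 1 and below the other 4 aged libraries. The log2 fold change was 0.39 ± 0.122 (SE) with an adjusted p of 0.0318 in edgeR. Ndufs4, an accessory subunit whose loss in mice causes a Leigh-like disease, and Ndufv2, an iron-sulfur core subunit, had log2 fold changes of 0.33 and 0.31 and adjusted p values of 0.0555 and 0.0588 in edgeR. Ndufa4 of complex IV had a log2 fold change of 0.17 (adjusted p 0.354 in edgeR).

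**Figure D2:**
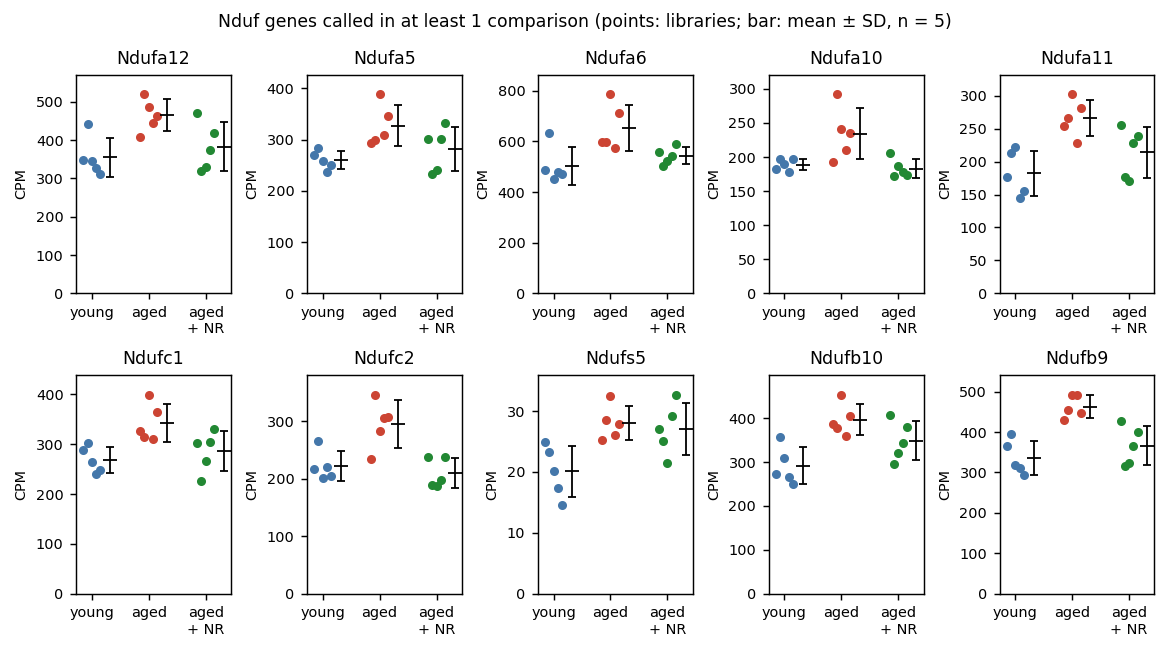
CPM of the 10 Nduf genes called in at least 1 comparison, with a point for each library (left to right, replicates 1 to 5) and a bar for the mean ± SD of each group (n = 5). For Ndufb9 the aged libraries, 429 to 492 CPM, lie above both other groups, while for Ndufs5 the NR-treated aged libraries, 21.4 to 32.7 CPM, overlap the aged ones at 25.3 to 32.5 CPM.

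Complete separation of the groups, with every aged library above every young one, was found for 6 members (13.3%), against 6.86% of all genes. These were Ndufb9, Ndufa11, Ndufb10, Ndufc1, Ndufs5 and Ndufa5. When young 1 and young 5 were left out, 1 member, Ndufb9, passed the test (log2 fold change 0.44, adjusted p 0.0372 in edgeR), while the median over the subunits was 0.24. Leaving out other single libraries moved the count as well, to 21 without young 2, to 15 without aged 1, and to 4 without young 4, young 5, aged 3 or aged 5. The 9.68% of all genes called higher belongs to the fit of all 15 libraries. The share of all genes called in these refits is not given here, so their counts are not set against it.

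Assembly factors had a median log2 fold change close to that of the subunits. Of the 8, 0 passed the test between aged and young HSC, against 9.68% of all genes called higher and 9.63% called lower. At an unadjusted p under 0.05 stood 2 of the 8 (25%), a share below the 33.2% of all genes. These were Ndufaf3, which acts on the Q module with Ndufaf4, and Ndufaf7, a methyltransferase. Their log2 fold changes were 0.40 ± 0.142 (SE) and 0.39 ± 0.139 (SE), with adjusted p values of 0.0552 and 0.0555 in edgeR. Both were called by DESeq2 and by limma-voom, and Ndufaf7 also by edgeR's likelihood ratio test. Ndufaf6 had a log2 fold change of 0.32 with a wider error of 0.232 (SE) at 12.6 to 17.3 CPM on average per group. Ndufaf3 shares exon sequence with the opposite-strand gene Impdh2.

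Of 13 further assembly factors that do not carry the Nduf name, 3 (23.1%) were higher in aged HSC and 0 were lower, against 9.68% and 9.63% of all genes, with a median log2 fold change of 0.07. At an unadjusted p under 0.05 stood 5 of them (38.5%), a share near the 33.2% of all genes. Tmem126b, which works with Ndufaf1, Ecsit and Acad9 in the assembly of the membrane arm, rose from 29.3 ± 4.49 to 59.4 ± 6.45 CPM (SD, n = 5 each), a log2 fold change of 1.04 ± 0.138 (SE) with an adjusted p of 3.5e-05 in edgeR. Its partners Ndufaf1, Ecsit and Acad9 had log2 fold changes of -0.02, -0.06 and -0.01. Lyrm2 had a log2 fold change of 0.63 (adjusted p 0.0116 in edgeR) and Tmem70 of 0.40 (adjusted p 0.0186 in edgeR). Tmem126b was 43.1 ± 6.70 CPM (SD, n = 5) in NR-treated aged HSC, which lay between the other groups. It passed the test against both, with a log2 fold change of -0.48 against aged HSC (adjusted p 0.0343 in edgeR) and of 0.56 against young HSC (adjusted p 0.0235 in edgeR).

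Between NR-treated aged and untreated aged HSC, 2 of the 45 members passed the test, both lower after NR. These were Ndufc2 and Ndufa10, both of the proximal membrane arm. This share of 4.44% was close to the 4.18% of all genes that were called lower, and 0 members were called higher against 3.88% of all genes. At an unadjusted p under 0.05 stood 11 members (24.4%) and 25.1% of all genes. The log2 fold change was at or below -0.01 for 43 members and at -0.0016 for Ndufv1 and -0.0029 for Ndufaf1, so that 0 of the 45 were above 0, against 51.8% of all genes. With library totals in place of TMM, 30 members were below 0 and 15 above. Without aged 3, 8 were above 0, and 5 without NR-treated 2 or with genes of at least 10 counts. The remaining alternatives had 0 to 4 above 0. The median was -0.22 over the subunits, -0.11 over the assembly factors and 0.02 over all genes. Library totals moved the median of all genes to 0.16 in this comparison and to -0.16 between aged and young HSC, and the subunit median relative to all genes was -0.24 in this comparison with either scaling. By module, the medians were -0.20 in the N module, -0.16 in the Q module, -0.24 in the proximal and -0.23 in the distal membrane arm, and -0.11 over the 7 core subunits.

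Ndufc2 was 238, 188, 188, 197 and 238 CPM in NR-treated 1 to 5, against 234 to 346 CPM in aged HSC. All NR-treated libraries but 1 and 5 lay below every aged library, and those exceeded aged 1 alone. The mean fell from 296 ± 41.3 to 209.9 ± 26.0 CPM (SD, n = 5 each), a log2 fold change of -0.49 with a 95% interval of -0.73 to -0.24 and an adjusted p of 0.0188 in edgeR. Ndufa10 (chr1:92439010-92473860), an accessory subunit with a fold like that of nucleoside kinases, was 193, 292, 241, 209.8 and 235 CPM in aged and 205, 173, 186, 178 and 173 CPM in NR-treated aged HSC. Aged 2, the library with the fewest counts, was the highest, and NR-treated 1 lay above aged 1. Its log2 fold change was -0.34 ± 0.106 (SE) with an adjusted p of 0.0494 in edgeR, and 0.0240 to 0.212 over 25 alternatives, of which 6 kept it past the threshold. Between aged and young HSC, where it was 183, 197, 189.5, 178 and 197 CPM in young, Ndufa10 did not pass (log2 fold change 0.30, adjusted p 0.0533 in edgeR).

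The other genes called between aged and young HSC did not pass here. Ndufb9 was 427, 315, 324, 366 and 400.3 CPM in NR-treated aged HSC, every value below the lowest aged library at 429 CPM, and was the sole member with such a separation (2.22% of members and 4.95% of all genes). Its log2 fold change was -0.34 with a 95% interval of -0.56 to -0.11 and an adjusted p of 0.0601 in edgeR, and DESeq2 and limma-voom called it. Ndufa11 was 256, 176, 170.0, 229 and 239 CPM, Ndufb10 408, 295, 320, 344 and 379.9 CPM, and Ndufc1 302, 226, 267, 305 and 330.0 CPM. Those 3 overlapped both other groups, and their log2 fold changes against aged HSC were -0.32, -0.19 and -0.27. Ndufa6 was 560.2, 504, 523, 542 and 591 CPM, Ndufa12 471, 318, 329, 374 and 418 CPM, and Ndufa5 302, 232, 241, 301 and 333 CPM. NR-treated 1 and 5 were the highest of the group for these genes as for most members, in which 43 and 40 of 45 members were above the group's mean. Ndufs5 was the exception among the called genes. It stood at 27.1, 25.04, 21.4, 29.2 and 32.7 CPM, with a log2 fold change against aged HSC of -0.05 and a 95% interval of -0.38 to 0.29, and library totals gave 0.10.

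Leaving out NR-treated 3 or NR-treated 4 left 0 members called between NR-treated and untreated aged HSC, and leaving out other single libraries left 1 to 3. For these refits, too, the share of all genes called is not given here. Without young 1 and 5, which enter through the shared fit, Ndufc2 alone passed, and 0 members passed between NR-treated aged and young HSC. Each aged library also held more erythroid, B and plasma cell, granulocyte and monocyte transcripts than any NR-treated library, and the part of these cells in the Nduf levels was not tested.

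**Figure D3:**
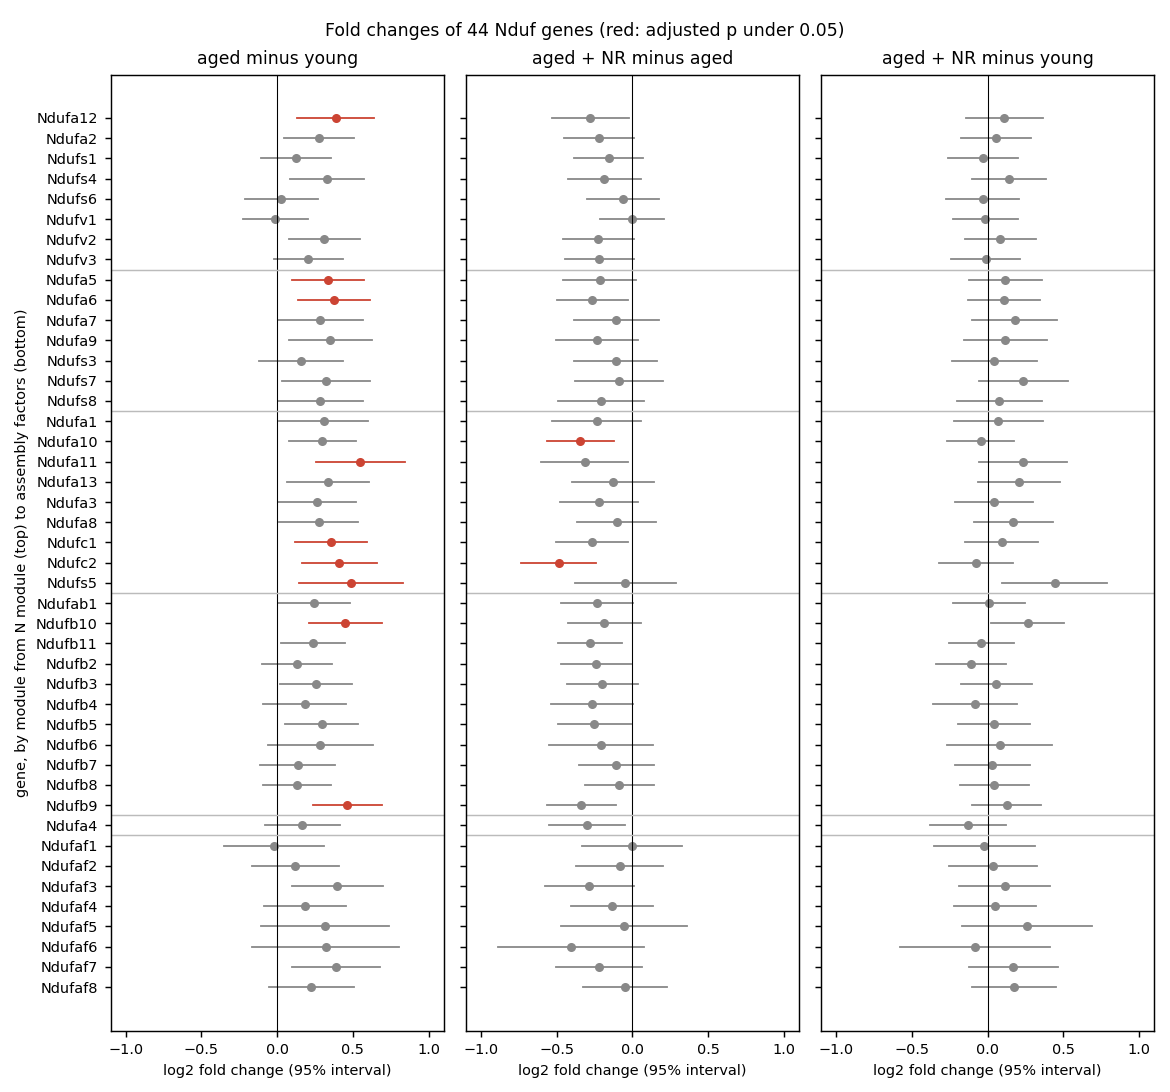
Log2 fold change of 44 of the 45 Nduf genes with its 95% interval in the 3 comparisons, from 1 edgeR fit of all 15 libraries with TMM scaling, where red marks an adjusted p under 0.05. Red are 9 genes above 0 on the left, 2 below 0 in the middle and 0 on the right. With library totals in place of TMM, 15 of the 45 genes were above 0 in the middle panel and 5 below 0 in the left one.

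Between NR-treated aged and young HSC, 0 of the 45 members passed the test in edgeR, and 0 in DESeq2, limma-voom or edgeR's likelihood ratio test, against 2.56% of all genes called higher and 1.91% called lower. At an unadjusted p under 0.05 stood 2 members (4.44%) and 18% of all genes. These were Ndufs5, with a log2 fold change of 0.44, a 95% interval of 0.10 to 0.79 and an adjusted p of 0.146 in edgeR, and Ndufb10, with 0.26, an interval of 0.02 to 0.50 and an adjusted p of 0.232 in edgeR. Above 0 was the log2 fold change of 33 members (73.3%) and 49.4% of all genes, with a median of 0.07 over the subunits, 0.08 over the assembly factors and -0.0046 over all genes. For Ndufc2 it was -0.08 with an interval of -0.32 to 0.17, and for Ndufb9 0.12 with an interval of -0.10 to 0.35. The intervals of Ndufs5 and Ndufb10 include their log2 fold changes between aged and young HSC, 0.49 and 0.45. Those of Ndufc2 and Ndufb9 end below the 0.41 and 0.46 of these genes between aged and young HSC. The 0.41 and 0.46 have 95% intervals of their own, 0.16 to 0.66 for Ndufc2 and 0.23 to 0.69 for Ndufb9. For both genes the intervals of the 2 comparisons overlap. These genes were also picked for being higher in aged HSC, so a return to the young level cannot be read from these values. The tests do not show that the groups were alike. The 3 comparisons share libraries in pairs, so their fold changes are not independent of each other.

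Summed over the 37 subunit genes, the level was 7796 to 10179 CPM in young, 9534 to 12107 CPM in aged and 7678 to 10380 CPM in NR-treated aged HSC. The means were 8686 ± 940, 10613 ± 1011 and 9146 ± 1141 CPM (SD, n = 5 each). The aged libraries overlapped both other groups, as young 2 lay above aged 1 and 4. Summed over the 8 assembly factors, the level was 386 to 482, 475 to 579 and 389 to 553 CPM in the same order. Members moved together from library to library within a group. Young 2 was above its group's mean for 42 of the 45 members and young 4 for 6, aged 3 for 42 and aged 1 for 2, and NR-treated 1 for 43 and NR-treated 2 for 1. The median coefficient of variation of a member was 11.8% in young, 12.1% in aged and 14.2% in NR-treated aged HSC.

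Beside these sums, 19 genes of mature erythroid, B, plasma, T, granulocyte and monocyte cells summed to 735 to 10521 CPM in young, 8452 to 10988 CPM in aged and 462 to 1265 CPM in NR-treated aged HSC. In young 1 to 5 the mature cell sums were 1416, 735, 10521, 4003 and 1335 CPM and the subunit sums 8722, 10179, 8760, 7796 and 7974 CPM. The part of mature cells in the difference between aged and young HSC was not tested. Without young 3, 6 members passed the test between aged and young HSC, and the subunit median was 0.30. That count has no share of all genes beside it.

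**Figure D4:**
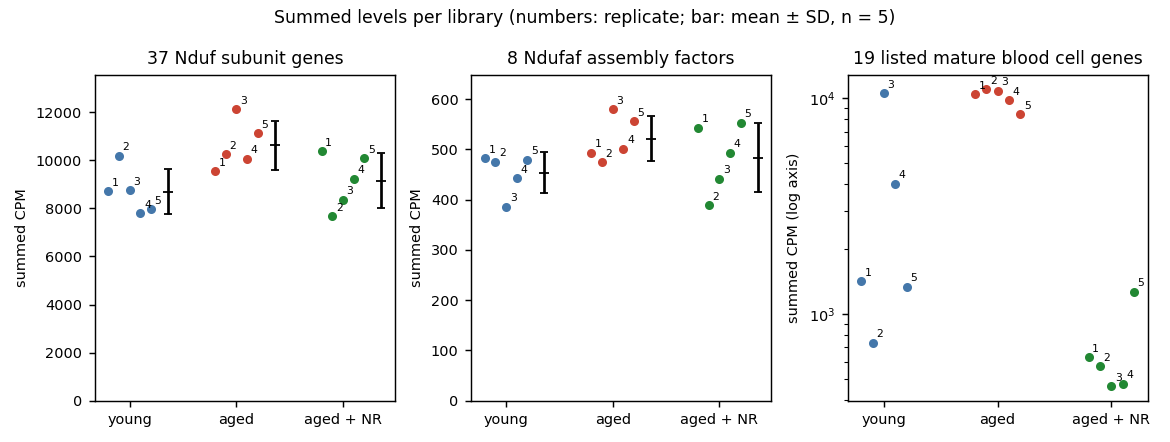
Summed CPM per library of the 37 Nduf subunit genes (left), of the 8 Ndufaf assembly factors (middle) and of 19 mature blood cell genes on a log axis (right), with replicate numbers beside the points and bars for the mean ± SD (n = 5) on the left and in the middle. The subunit sums of the 3 groups overlap, while the mature cell sums of the aged libraries, 8452 to 10988 CPM, lie above all NR-treated libraries and above all young libraries but young 3.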

How the data were processed

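RNA was sequenced with a 3′-biased protocol and a 10 bp unique molecular identifier. The authors aligned reads to GRCm38 with STAR 2.4.2a, removed duplicated identifiers, counted exonic reads with featureCounts and deposited the counts per gene, unnormalised, for genes above 5 reads and 2 CPM in at least 2 samples. Strandedness of the counting is not given in the sources used here. The table has 15 sample columns, and 0 columns were left out.

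Counts of all 16154 genes were fitted in edgeR 4.0.16 (R 4.3.3) with TMM scaling, all 15 libraries and no factor but group. Calls are by its quasi-likelihood test at an adjusted p under 0.05, with Benjamini-Hochberg correction across the table. The fit was tested on simulated data. Alternatives used the likelihood ratio test, DESeq2 1.42.0, limma-voom (limma 3.58.1), DESeq2's size factors or library totals, the 8444 genes that reached 10 counts in all libraries, the 2 compared groups alone, a replicate block, counts thinned to the smallest total, an adjusted p under 0.01, and fits without single libraries or without young 1 and 5. The median without Ndufa4 was added after the data were seen.

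Replicates are separate mice. Deviations of same-numbered libraries from their group means correlated by 0.0067 on average (-0.25 to 0.14 over 15 pairs), so numbers were not treated as pairs. Libraries within a group all differed beyond sampling noise (chi-square over degrees of freedom, 3.00 to 16.7). The smallest library allows a floor of 3 counts at 3.93 CPM and the largest at 0.225 CPM, which covers counting error only.

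Values per library are given for members called in any comparison, and at most 3 members per module are otherwise named by the size of their change between aged and young HSC. Of the other assembly factors the called genes are named. Ndufv1, Ndufaf1, Ndufa4, Ecsit and Acad9 were named after their values were seen. The values of 1 member are not reported here by name and not drawn, though it is part of the counts and medians. The members and lists were chosen with earlier results of these data known. Gene positions are from GENCODE M21 and promoter windows from RefSeq, both on GRCm38. Exons of 18 members overlap another gene, for 9 of them one in the table on the opposite strand and for 0 one in the table on the same strand. Some, as Ndufb9, overlap a same-strand gene that is not in the table. Figures were drawn with matplotlib 3.10.9 in Python 3.11.15.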

Additional observations from a re-analysis of the deposited data

Results flagged for a closer look

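The 10 genes called in any comparison, together with the subunit and assembly factor sums, were searched for a library far from the rest of its group, in 36 groups of 5 libraries with Dixon's ratio (critical value 0.71). About 1 in 20 such groups would be marked by chance. In the young group, Ndufa6 stood at 634.56 CPM and Ndufa12 at 442.06 CPM in young 2, with ratios of 0.801 and 0.727. Both values come from the library in which 42 of the 45 Nduf genes were above the group's mean. Without it, 21 members were called between aged and young HSC, a count given without the share of all genes in that refit.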

How the results depend on the processing

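Between aged and young HSC, 9 members were called, against 16 with DESeq2, 15 with limma-voom, 3 with library totals, 3 after thinning to the smallest total, 5 with a replicate block, 2 at an adjusted p under 0.01 and 1 without young 1 and 5. Leaving out 1 library gave 4 to 21. The remaining alternatives gave 7 to 9, and no member was called lower in any of them. Between NR-treated and untreated aged HSC, 2 members were called, against 3 with DESeq2 and limma-voom, 1 with the likelihood ratio test, DESeq2's size factors, genes with at least 10 counts, the 2 groups alone, the replicate block or without young 1 and 5, and 0 with library totals, after thinning or at an adjusted p under 0.01. Leaving out 1 library gave 0 to 3. Between NR-treated aged and young HSC, 0 were called in every alternative. The shares of all genes, 9.68% called higher with age and 4.18% called lower after NR, belong to the main fit. Those of the alternatives are not given here, so these counts cannot be read as above or below all genes. The subunit median ranged from 0.16 to 0.36, from -0.26 to -0.08 and from 0.01 to 0.13 in the 3 comparisons, so each kept its sign. Of the called genes between aged and young HSC, Ndufb9 passed in 25 of 25 alternatives, Ndufa11 and Ndufb10 in 24, Ndufc2 in 20, Ndufc1 in 17, Ndufa6 in 16, Ndufa12 in 15, Ndufs5 in 12 and Ndufa5 in 10. Ndufc2 passed in 21 and Ndufa10 in 6 between NR-treated and untreated aged HSC. In that comparison the log2 fold change of Ndufs5 (-0.05) changed sign to 0.10 with library totals and to 0.028 with genes of at least 10 counts, and leaving out 1 library gave -0.13 to 0.029. It turned above 0 without aged 3 (0.029) or NR-treated 3 (0.023). The cause was not tested.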
